A study of Mus musculus with 30 samples.

Results

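T2 and T1 cells of mouse MPP3 progenitors differed from each other in 24-month and in 3-month WTiMOS animals, and the comparison described here asks for which genes that difference was unequal at the 2 ages. For each gene the T2 minus T1 step was taken on the log2(TPM + 1) scale within each age (TPM, the length-normalised share of transcripts), and the 3-month step was subtracted from the 24-month step. The rule took 12 of the 30 libraries of the series and every gene with at least 1 TPM in at least 3 of those 12, without genes of the X and Y chromosomes. Of 24421 genes listed, 12384 reached that level, 411 of them lay on X and 4 on Y, and 11969 were tested. A positive difference means that T2 stood higher above T1, or less far below it, at 24 months than at 3 months.

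MPP3 cells are multipotent progenitors of the bone marrow with a bias toward the myeloid lineages, and MPP4 cells are counterparts with a bias toward lymphocytes. Bcl11a is a zinc-finger repressor that recruits chromatin-remodelling and deacetylase complexes, is required for the B lineage, and silences fetal globin genes in red cell precursors. With age, blood-forming progenitors are known to shift their output toward myeloid cells and platelets and away from lymphocytes.

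The groups were 24-month WTiMOS MPP3 T2 cells, 24-month WTiMOS MPP3 T1 cells, 3-month WTiMOS MPP3 T2 cells and 3-month WTiMOS MPP3 T1 cells, with 3 bone marrow libraries in each. The cells were sorted by flow cytometry, and the series asks what Bcl11a does inside MPP3 cells and what its overexpression does in wild-type ones. The labels do not say what separates T1 from T2, which promoter or recombinase the iMOS alleles use, the strain and sex of the animals, or whether the 3 libraries of a group came from different animals. The p-values therefore measure the spread between libraries, which may be technical. WTiMOS MPP4 libraries of the same ages and labels served for 1 comparison, and KOiMOS libraries were not used here.

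Each library sums to 1e+06 TPM, so its read depth is unknown and no counting error can be given. Between 10939 and 11658 genes stood at 1 TPM or more per library, and the Pearson correlation within a group ran between 0.976 and 0.993. The 2 ages were deposited as separate tables, so levels at 24 and at 3 months may not share a scale, and only the steps within a table were tested. Levels set side by side across the ages below are a description and carry that limit. For each library, the deviation of each gene from its mean log2(TPM + 1) over the 12 libraries was correlated with GC content. Spearman rho was -0.421 in 24-month T2 replicate 1, -0.230 and -0.229 in 24-month T2 replicates 2 and 3, and -0.369 to -0.402 in 24-month T1 libraries. It was 0.319 to 0.327 in 3-month T2 and 0.344 to 0.367 in 3-month T1 libraries. Because the mean spans both ages, the signs are relative and do not describe the level of a gene. Across 11497 genes the 24-month step correlated with GC content at 0.156, the 3-month step at -0.028 and their difference at 0.177, as a description across genes that share libraries.

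Progenitor genes were present under the MPP3 label in every group. Kit, the stem cell factor receptor, averaged 91.5 TPM in 24-month T2, 61.4 TPM in 24-month T1, 156 TPM in 3-month T2 and 154 TPM in 3-month T1 cells. Mpo, an early myeloid granule enzyme, averaged 281 TPM in 24-month T2, 195 TPM in 24-month T1, 4238 TPM in 3-month T2 and 2190.0 TPM in 3-month T1 cells. Cebpa, a myeloid transcription factor, averaged 2.0 TPM in 24-month T2, 1.94 TPM in 24-month T1, 6.03 TPM in 3-month T2 and 6.41 TPM in 3-month T1 cells. In 24-month MPP4 cells Mpo averaged 112 TPM in T2 and 63.1 TPM in T1, and Cebpa 1.38 and 0.958 TPM. Flt3, listed as a marker that should be low in MPP3 cells, averaged 28.0 TPM in 24-month T2 and 19.9 TPM in 24-month T1 cells. At 3 months it averaged 146 TPM in T2 and 87.6 TPM in T1 cells. In 3-month MPP4 cells it averaged 116 TPM in T2 and 180 TPM in T1, so at 3 months Flt3 does not bear out the MPP3 label. Among 7 MPP3 markers, 2 had a positive and 3 a negative difference of steps at an adjusted p at or below 0.05 (limma). The shares of all genes were 9.86% and 5.24%.

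Sex-linked genes, left out of the test, moved with the step at 24 months. The summed level of the Y-linked genes Eif2s3y, Ddx3y, Kdm5d and Uty was 76.8, 54.0 and 59.5 TPM in the 24-month T2 libraries and was listed at 0 in all 3 of the 24-month T1 libraries. At 3 months it was 33.8, 38.4 and 58.5 TPM in T2 and 64.2, 76.6 and 78.9 TPM in T1 libraries. Xist, which is transcribed from the inactive X, averaged 20.4 ± 2.23 TPM in 24-month T2 and 69.2 ± 7.36 TPM in 24-month T1 cells (SD, n = 3 each), and ran at 33.4 to 40.5 TPM in 3-month T2 and 28.2 to 32.7 TPM in 3-month T1 libraries. At 24 months the T2 and T1 libraries thus also differed in male transcripts, and for every 24-month step below that difference and the T2 and T1 labels cannot be told apart. The same limit holds for every difference of steps, since at 3 months both T2 and T1 libraries held male transcripts.

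Bcl11a, at chr11:24078056-24174123 on the plus strand of GRCm38 (ENSMUSG00000000861.15), stood above its T1 level in T2 cells at both ages, with the larger log2 step at 24 months. That step is a ratio, and in TPM the means lay closer together at 24 months. Bcl11a averaged 39.1 TPM in T2 and 11.2 TPM in T1 cells at 24 months. At 3 months Bcl11a averaged 78.5 TPM in T2 and 45.2 TPM in T1 cells. Its level was 44.4, 39.8 and 33.2 TPM in 24-month T2 libraries and 8.52, 12.9 and 12.1 TPM in 24-month T1 libraries. At 3 months it was 76.3, 85.3 and 73.8 TPM in T2 libraries and 43.8, 48.5 and 43.5 TPM in T1 libraries. T2 and T1 did not overlap at either age. The log2 step was 1.73 at 24 months and 0.78 at 3 months, and the difference of 0.95 (SE 0.21) passed the test at an adjusted p of 0.007 (limma, Benjamini-Hochberg over all genes tested).

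Across all genes the step differed between the ages for 1807 of 11969 (15.1%), at an adjusted p at or below 0.05. The difference was positive for 1180 genes (9.86%) and negative for 627 (5.24%), and 749 of the 1807 differed by 2-fold or more, 472 of them upward and 277 downward. Counts of list members given below are to be read against the shares of 9.86% and 5.24%. At each age 3 T2 and 3 T1 libraries give 9 differences, and for 2235 genes (18.7%) those of the 2 ages did not overlap. The split depended on scaling: it was 1036 positive to 779 negative after median-ratio rescaling, and 971 to 923 after removal of the trend on GC content and transcript length. Of the 1807 genes, 1621 (89.7%) were called again after rescaling and 1448 (80.1%) after that removal. Within the ages, T2 and T1 differed for 4212 genes at 24 months (35.2%, with 2999 or 25.1% higher and 1213 or 10.1% lower in T2) and for 1847 at 3 months (15.4%, with 1129 or 9.43% higher and 718 or 6.0% lower in T2). After rescaling those splits were 2133 to 1844 and 584 to 894, and small steps are read against the median of all genes. That median log2 step was 0.17 as deposited and 0.03 rescaled at 24 months, and 0.10 as deposited and 8.81e-06 rescaled at 3 months.

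Most genes whose step differed had a step that passed the test at 24 months and not at 3 months. They numbered 1153 (63.8% of the 1807), 806 of them higher and 347 lower in 24-month T2 cells. For 265 genes (14.7%) the step passed at 3 months and not at 24 months. A further 142 stepped in the same direction with the larger step at 24 months, and 44 in the same direction with the smaller step at 24 months. The steps of 104 genes (0.869% of genes tested) passed in opposite directions, 59 of them upward at 24 months and 45 downward. The count of opposite genes was 59 without 3-month T1 replicate 1 and reached 155 in other fits that left out 1 library.

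**Figure D1:**
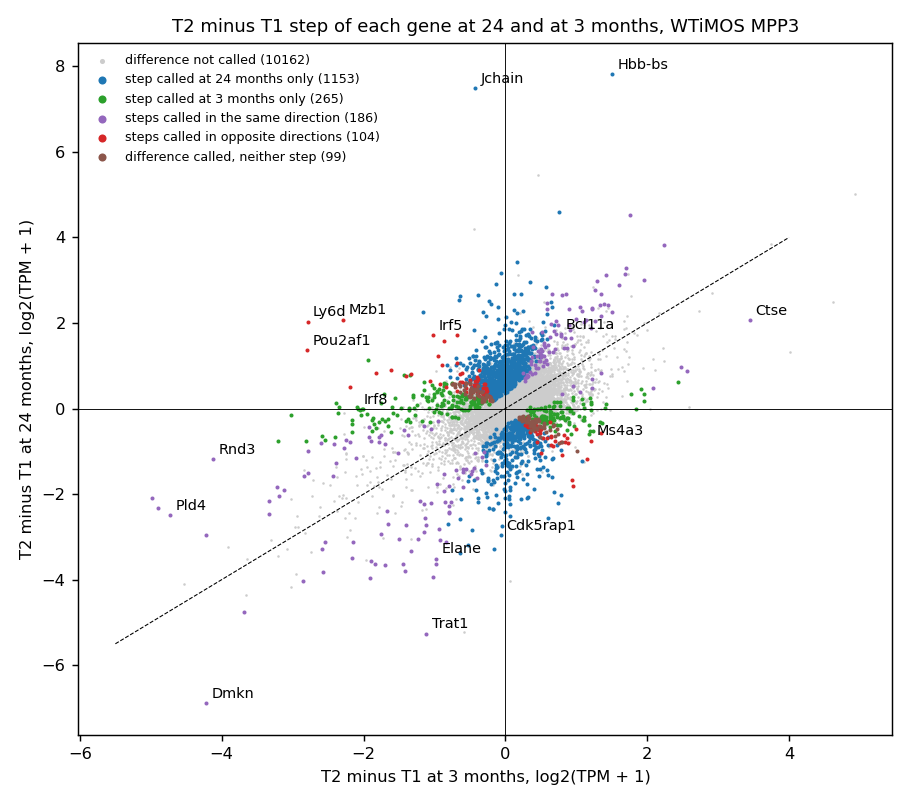
Each point is 1 of 11969 genes, with its T2 minus T1 step at 3 months on the x axis and at 24 months on the y axis, both as log2(TPM + 1) differences, and the dashed line marks equal steps. The 1153 genes called at 24 months only spread along the y axis, the 265 called at 3 months only along the x axis, and the 104 with opposite steps lie in the upper left and lower right.

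Among the genes named by size, antibody-secretion gene Jchain had the largest positive difference. Jchain, which encodes the joining chain of polymeric antibodies and lies at chr5:88519809-88527891 on the minus strand, stood at 3080.0, 2259 and 2392 TPM in 24-month T2 libraries and at 14.5, 11.9 and 13.3 TPM in 24-month T1 libraries. At 3 months it was listed at 0, 0 and 0.442 TPM in T2 and at 0, 2.42 and 0.0271 TPM in T1 libraries. The 24-month T2 libraries stood far above all others, and the 3-month groups overlapped near 0. The log2 step was 7.49 at 24 months and -0.43 at 3 months, where it missed the threshold, for a difference of 7.92 (SE 0.52, adjusted p 1.53e-06). Of 20 tested genes of the plasma cell and secretory pathway list, 11 had a positive and 0 a negative difference, with a median of 0.72 against 0.08 over all genes. That count was 11 after rescaling, 12 after removal of the GC and length trend, and 9 to 12 with 1 library left out.

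Tnfrsf17, the receptor BCMA of plasma cells, stood at 4.86, 5.75 and 4.51 TPM in 24-month T2 libraries and at no more than 0.621 TPM in any other library, for a difference of 2.74 (SE 0.36, adjusted p 0.000132). Fam46c, a poly(A) polymerase of plasma cells, stood at 6.79, 6.98 and 5.35 TPM in 24-month T2 libraries and at no more than 2.99 TPM elsewhere, with a difference of 3.26. Genes of protein folding in the endoplasmic reticulum were expressed in every group and differed by less. Creld2 averaged 218 ± 19.7 TPM in 24-month T2 and 63.5 ± 5.35 TPM in 24-month T1 cells, against 127 ± 10.5 TPM in 3-month T2 and 134 ± 12.6 TPM in 3-month T1 cells (SD, n = 3 each). The difference of Creld2 was 1.85 (SE 0.15, adjusted p 2.07e-06) and that of Sdf2l1, another folding factor, 1.32 (SE 0.18, adjusted p 0.00016). Chosen after their values were seen, the remaining positive members were Prdm1, the master regulator of antibody secretion, at 1.16, the plasma cell antigen Sdc1 at 1.62, and the folding or degradation factors Derl3 at 2.43, Herpud1 at 0.66, Hspa5 at 0.56 and Hsp90b1 at 0.84, besides Mzb1.

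The markers of mature plasma cells are 6 genes named above or in the same list, so their sum is no separate measure. It reached 2359 to 3177 TPM in 24-month T2, 30.7 to 36.6 TPM in 24-month T1, 7.14 to 13.3 TPM in 3-month T2 and 29.6 to 39.1 TPM in 3-month T1 libraries. Jchain made up most of the first of these ranges, 5 of the 6 had a positive difference, and Irf4 was not called. The part of mature plasma cells in the result was not tested. In bulk RNA, fewer cells of a type and less RNA per cell cannot be told apart. Ighm and Igkc, which complete the 8 plasma cell markers, were not among the genes listed.

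**Figure D2:**
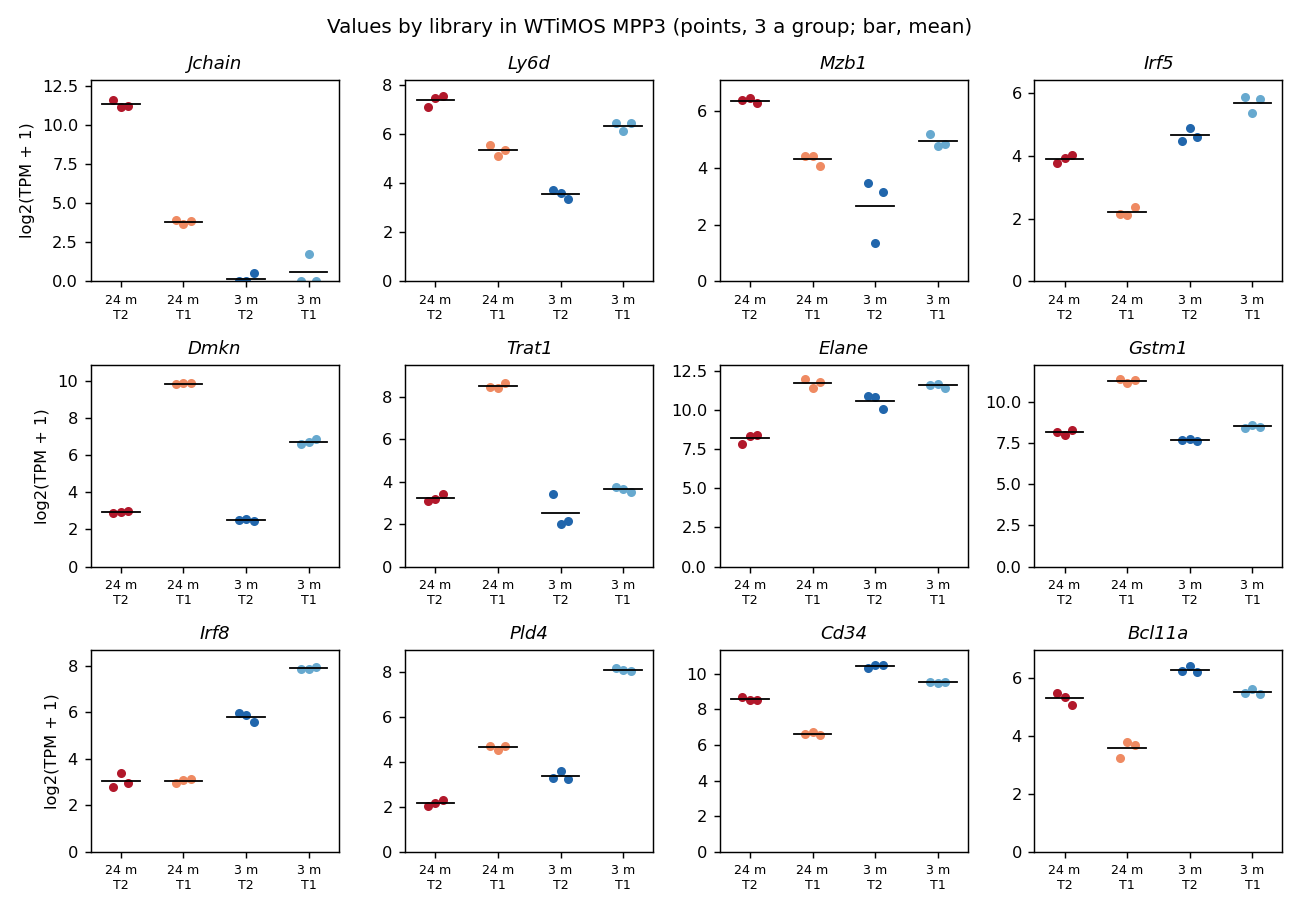
Levels of 12 named genes in each of the 12 libraries on a log2(TPM + 1) axis, with 1 point per library, a bar at the group mean, and groups running from 24-month T2 and 24-month T1 to 3-month T2 and 3-month T1. Jchain stands at 2259 TPM or more in 24-month T2 libraries and near 0 at 3 months, while Ly6d and Irf5 are higher in T2 than in T1 at 24 months and lower in T2 than in T1 at 3 months.

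Promoter sequence is shown for the gene with the largest positive difference and for a pair of genes with large negative ones, to place known motif letters near their starts. Each of these promoters held a match. The promoters of Pou2af1, Irf5 and Trat1 were also searched and held 0 matches. Trat1 had the largest negative difference among the genes named by size. The promoter of Fcrla held 1 match, an E box. The sequences are RefSeq's on GRCm38.p6, run 5′ to 3′ along the gene's own strand from 250 bases before the transcription start to 50 bases after it, and capitals mark the matched motif. Jchain, at chr5:88527848-88528147 on the minus strand, holds the E box CACCTG 5 bases after the start. Dmkn, at chr7:30763506-30763805 on the plus strand, holds the AP-1 letters TGAGTCA 89 bases before the start. Elane, at chr10:79886062-79886361 on the plus strand, holds the PU.1 letters GAGGAAGT 85 bases before the start.
Jchain: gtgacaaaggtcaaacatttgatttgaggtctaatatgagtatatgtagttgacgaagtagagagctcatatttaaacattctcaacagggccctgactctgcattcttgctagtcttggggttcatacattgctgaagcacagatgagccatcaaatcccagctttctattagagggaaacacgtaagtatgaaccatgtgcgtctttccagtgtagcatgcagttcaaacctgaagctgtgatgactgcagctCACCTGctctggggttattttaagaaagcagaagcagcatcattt
Dmkn: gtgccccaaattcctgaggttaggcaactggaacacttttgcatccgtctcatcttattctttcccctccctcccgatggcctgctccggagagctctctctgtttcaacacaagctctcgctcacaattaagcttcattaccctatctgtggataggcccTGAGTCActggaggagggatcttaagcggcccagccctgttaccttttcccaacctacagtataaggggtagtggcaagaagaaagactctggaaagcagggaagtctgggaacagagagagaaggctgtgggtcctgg
Elane: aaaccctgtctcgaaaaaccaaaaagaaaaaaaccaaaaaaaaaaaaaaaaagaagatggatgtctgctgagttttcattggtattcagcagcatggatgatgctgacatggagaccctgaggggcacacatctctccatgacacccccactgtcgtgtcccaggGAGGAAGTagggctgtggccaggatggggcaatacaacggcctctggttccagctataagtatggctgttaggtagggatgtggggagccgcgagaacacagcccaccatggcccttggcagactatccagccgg

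RefSeq promoters matched 8925 of the genes tested, 900 of them with a positive and 445 with a negative difference. On either strand the E box CAGGTG was in 17.0% of promoters of genes with a positive difference, 16.6% of those with a negative one and 16.7% of all. The AP-1 letters TGACTCA were in 2.67%, 6.29% and 3.51% of the same sets, the PU.1 letters GAGGAAGT in 3.56%, 5.84% and 3.39%, and the octamer ATTTGCAT in 1.33%, 2.25% and 1.23%. TGACCA, the letters BCL11A is known to bind in human red cell precursors, was in 12.3%, 12.1% and 11%. Among called genes that differed by 2-fold or more, the PU.1 letters were in 6.08% of positive and 6.08% of negative promoters. In the same order the octamer was in 1.93% and 1.1%, and the AP-1 letters in 3.04% and 6.63%. The E box was in 20.7% and 17.1%, and TGACCA in 11.9% and 15.5%. A match is a description of these letters in this window, not a binding site.

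Several genes of the lymphoid branch had opposite steps at the 2 ages. Ly6d, a surface antigen of lymphoid and B-cell progenitors at chr15:74762056-74763620 on the minus strand, stood at 138, 178 and 186 TPM in 24-month T2 libraries and at 46.8, 33.6 and 40.4 TPM in 24-month T1 libraries. At 3 months it stood at 12.2, 11.2 and 9.16 TPM in T2 and at 86.8, 69.3 and 86.3 TPM in T1 libraries. T2 lay wholly above T1 at 24 months and wholly below it at 3 months. The log2 steps were 2.03 and -2.79, and the difference was 4.82 (SE 0.22, adjusted p 2.37e-09).

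Mzb1, a chaperone of antibody assembly in B and plasma cells, followed the same order. It stood at 83.7, 86.9 and 76.6 TPM in 24-month T2 and at 20.6, 20.4 and 15.7 TPM in 24-month T1 libraries, then at 10.2, 1.54 and 7.84 TPM in 3-month T2 and at 36.0, 26.3 and 27.9 TPM in 3-month T1 libraries. Its difference was 4.36 (SE 0.59, adjusted p 0.000708). Pou2af1, a coactivator of octamer-binding factors in B cells at chr9:51213708-51240080, averaged 5.86 ± 0.918 TPM in 24-month T2 and 1.67 ± 0.243 TPM in 24-month T1 cells, against 1.06 ± 1.1 TPM in 3-month T2 and 13.0 ± 5.56 TPM in 3-month T1 cells (SD, n = 3 each). Its steps were 1.36 and -2.80 and its difference 4.16 (SE 0.48, adjusted p 4.02e-05). All libraries of T2 were above those of T1 at 24 months and below them at 3 months for both genes.

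Of 23 tested lymphoid priming genes, 9 had a positive and 1 a negative difference, against 9.86% and 5.24% of all genes. The median difference was 0.79. The median step of the list was -0.01 at 24 months and -0.72 at 3 months. The count of positive members was 8 after rescaling, 8 after removal of the GC and length trend, and 8 to 10 with 1 library left out. Dntt, the enzyme that adds untemplated bases to antigen receptor genes, averaged 54.9 ± 5.57 TPM in 24-month T2 and 87.8 ± 6.87 TPM in 24-month T1 cells, against 45.0 ± 8.21 TPM in 3-month T2 and 172 ± 17.8 TPM in 3-month T1 cells (SD, n = 3 each). It was lower in T2 at both ages, with a smaller step at 24 months and a difference of 1.25 (SE 0.19, adjusted p 0.000406). Id3, an inhibitor of E proteins, had nearly equal levels in 24-month T2 (27.9 ± 4.42 TPM) and 24-month T1 cells (28.1 ± 3.53 TPM), against 6.05 ± 0.797 TPM in 3-month T2 and 27.6 ± 1.22 TPM in 3-month T1 cells (SD, n = 3 each). Its difference was 2.02 (SE 0.22, adjusted p 2.38e-05).

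Of 17 tested B lineage genes, 7 had a positive and 2 a negative difference, against 9.86% and 5.24% of all genes. The list's median step was -1.15 at 24 months and -2.27 at 3 months, and 10 members were lower in T2 at 24 months and 14 at 3 months. Cd79a, a signalling chain of the B-cell receptor, stood at 25.1, 17.6 and 16.9 TPM in 24-month T2 and at 49.9, 21.4 and 36.0 TPM in 24-month T1 libraries, against 21.0, 12.2 and 10.3 TPM in 3-month T2 and 133, 119 and 157 TPM in 3-month T1 libraries. The 24-month step of -0.76 missed the threshold, and the difference was 2.44 (SE 0.41, adjusted p 0.00147). Ms4a1, which encodes CD20, stood at 2.54, 4.06 and 2.56 TPM in 24-month T2 libraries and at 0.125 TPM or less in the other libraries, with a difference of 1.94. Fcrla, an Fc receptor-like protein of B cells, averaged 10.2 ± 1.75 TPM in 24-month T2 and 0.0447 to 0.406 TPM in the other groups, with a difference of 3.25 (SE 0.41, adjusted p 8.42e-05). The members with a negative difference, named after their values were seen, were Igll1 at -1.23 and Vpreb3 at -0.96, which belong to early B-cell stages. The count of 7 was 4 without 24-month T2 replicate 1, 4 without replicate 2 and 4 without replicate 3 of that group. Summed B-cell markers ran between 21.1 and 29.4 TPM in 24-month T2, 27.2 and 52.8 TPM in 24-month T1, 16.7 and 30.5 TPM in 3-month T2 and 169.6 and 203 TPM in 3-month T1 libraries, and Pax5 was listed at 0 in the first of these groups. The part of mature B cells in these differences was not tested.

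Dendritic cell genes had a downward step at 3 months that was not seen in their median at 24 months. Of 15 tested, 7 had a positive and 0 a negative difference, against 9.86% and 5.24% of all genes. The median steps were -0.01 at 24 months and -1.09 at 3 months. At 24 months 4 members were higher and 4 lower in T2, against 25.1% and 10.1% of all genes. At 3 months 1 member was higher and 9 were lower in T2, against 9.43% and 6.0% of all genes. Irf8, a transcription factor of dendritic cells and monocytes at chr8:120736358-120756694, stood at 5.85, 9.31 and 6.84 TPM in 24-month T2 and at 6.71, 7.59 and 7.75 TPM in 24-month T1 libraries, against 61.9, 57.7 and 46.2 TPM in 3-month T2 and 231, 233 and 241 TPM in 3-month T1 libraries. T2 and T1 overlapped at 24 months and did not at 3 months, and the difference was 2.06 (SE 0.22, adjusted p 2.05e-05). Pld4, a nuclease of plasmacytoid dendritic cells, averaged 3.54 ± 0.445 TPM in 24-month T2 and 24.5 ± 1.74 TPM in 24-month T1 cells, against 9.54 ± 1.56 TPM in 3-month T2 and 277 ± 11.8 TPM in 3-month T1 cells (SD, n = 3 each). Its steps of -2.49 and -4.73 gave a difference of 2.24 (SE 0.20, adjusted p 2.96e-06). The count of positive members was 7 after rescaling, 8 after removal of the GC and length trend, and 7 to 10 with 1 library left out. Summed dendritic cell markers, Pld4 among them, were lower in T2 at both ages. They ran between 20.2 and 21.4 TPM in 24-month T2 and 188 and 204 TPM in 24-month T1 libraries. At 3 months they ran between 13.6 and 18.9 TPM in T2 and 378 and 429 TPM in T1 libraries. The part of dendritic cells was not tested.

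Further genes named for opposite steps follow. Irf5, a transcription factor of innate and B-cell responses at chr6:29526625-29541871, stood at 12.7, 14.2 and 15.3 TPM in 24-month T2 and at 3.40, 3.28 and 4.13 TPM in 24-month T1 libraries, against 21.1, 28.7 and 23.2 TPM in 3-month T2 and 57.2, 40.2 and 54.2 TPM in 3-month T1 libraries. T2 was above T1 at 24 months and below it at 3 months in every library, and the difference was 2.73 (SE 0.24, adjusted p 2.87e-06). Ctsh, a lysosomal protease, had steps of 0.90 and -1.61 and a difference of 2.51 (SE 0.25, adjusted p 1.07e-05). Ier5, an immediate early gene, had steps of 1.22 and -0.95 and a difference of 2.17 (SE 0.27, adjusted p 9.1e-05). Lypd6b, of the Ly6 domain family, went the other way with steps of -1.17 and 1.15, and so did Rnase10, of the ribonuclease A family, with -1.68 and 0.94, at levels of no more than 2.66 TPM. Their differences were -2.33 (adjusted p 0.000333) and -2.62 (adjusted p 0.00019).

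Beta-globin genes were higher in 24-month T2 than in 24-month T1 cells, and their near-identical copies make the split among them uncertain. Hbb-bs, a beta-globin gene at chr7:103826534-103828096, stood at 244, 280.5 and 256 TPM in 24-month T2 and at 0, 0.538 and 0 TPM in 24-month T1 libraries. At 3 months it stood at 4.96, 0.828 and 11.1 TPM in T2 and at 0, 2.61 and 0.602 TPM in T1 libraries, which overlapped. The difference was 6.32 (SE 0.86, adjusted p 0.000829), that of Hbb-bt 3.84 (adjusted p 1.8e-05) and that of Hbb-b2 2.77 (adjusted p 1.48e-05). Across the erythroid list the differences were mixed. Of 26 tested, 4 had a positive and 3 a negative difference, against 9.86% and 5.24% of all genes. The median of the list was 0.10, and -0.16 after removal of the GC and length trend. Ctse, a protease of red cell precursors, was higher in T2 at both ages, averaging 42.0 ± 0.252 TPM in 24-month T2 and 9.35 ± 1.80 TPM in 24-month T1 cells, against 217 ± 3.89 TPM in 3-month T2 and 19.1 ± 3.10 TPM in 3-month T1 cells (SD, n = 3 each). Its difference was -1.38 (SE 0.20, adjusted p 0.000333). The positive count was 7 without 24-month T2 replicate 1, and the negative count was 5 without 3-month T1 replicate 2. Hba-a1, the alpha globin used with the erythroid markers, was listed at 0.163, 583 and 551 TPM in the 24-month T2 libraries. Summed erythroid markers ran between 250 and 870 TPM in 24-month T2, 2.67 and 4.38 TPM in 24-month T1, 11.5 and 34.9 TPM in 3-month T2 and 1.52 and 11.9 TPM in 3-month T1 libraries, while Klf1 was not called. The part of erythroid cells or free globin RNA was not tested.

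Of 29 tested stem cell and quiescence genes, 22 were higher and 2 lower in T2 at 24 months, and 13 were higher and 2 lower at 3 months, against 25.1% and 9.43% of all genes that were higher. In the difference of steps, 13 had a positive and 0 a negative difference, with a median of 0.56 and median steps of 0.93 at 24 months and 0.50 at 3 months. The count was 13 after rescaling, 10 after removal of the GC and length trend with 2 negative, and 9 to 13 with 1 library left out. Cd34, a sialomucin of progenitors at chr1:194938819-194961279, stood at 409, 372 and 370.1 TPM in 24-month T2 and at 99.1, 106 and 92.5 TPM in 24-month T1 libraries, against 1264, 1439 and 1448 TPM in 3-month T2 and 752, 723 and 749.6 TPM in 3-month T1 libraries. T2 was above T1 at both ages, and the difference was 1.05 (SE 0.12, adjusted p 2.95e-05). Procr, the protein C receptor that marks stem cells, averaged 16.5 ± 1.28 TPM in 24-month T2 and 2.39 ± 0.415 TPM in 24-month T1 cells, against 32.3 ± 2.86 TPM in 3-month T2 and 15.4 ± 4.27 TPM in 3-month T1 cells (SD, n = 3 each), with a difference of 1.33 (SE 0.26, adjusted p 0.00271). Msi2, an RNA-binding protein of stem cells, had a difference of 1.30 (SE 0.21, adjusted p 0.000788). Txnip, a redox regulator of quiescence, was higher in 24-month T2 (163 ± 3.38 TPM) than in 24-month T1 cells (78.3 ± 8.41 TPM), against 129.8 ± 17.3 TPM in 3-month T2 and 161 ± 7.28 TPM in 3-month T1 cells (SD, n = 3 each), and its difference was 1.37 (SE 0.15, adjusted p 2.83e-05).

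Genes known to mark aged stem cells did not follow the stem cell list. Of 20 tested, 2 had a positive and 6 a negative difference, and the median was -0.67. The count of negative members was 8 after rescaling and 6 after removal of the GC and length trend, and it was 4 without 24-month T1 replicate 2. Itgb3, an integrin chain shared with platelets, averaged 3.34 ± 0.0602 TPM in 24-month T2 and 9.13 ± 0.422 TPM in 24-month T1 cells, against 2.69 ± 0.143 TPM in 3-month T2 and 2.70 ± 0.417 TPM in 3-month T1 cells (SD, n = 3 each). Its difference was -1.22 (SE 0.25, adjusted p 0.00409). Wwtr1, a Hippo pathway coactivator, was at 2.91 to 3.88 TPM in 24-month T1 libraries and at no more than 0.499 TPM in all others, with a difference of -1.70 (adjusted p 0.00231). Jun, an AP-1 subunit, had a positive difference of 0.76 (SE 0.15, adjusted p 0.00284).

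**Figure D3:**
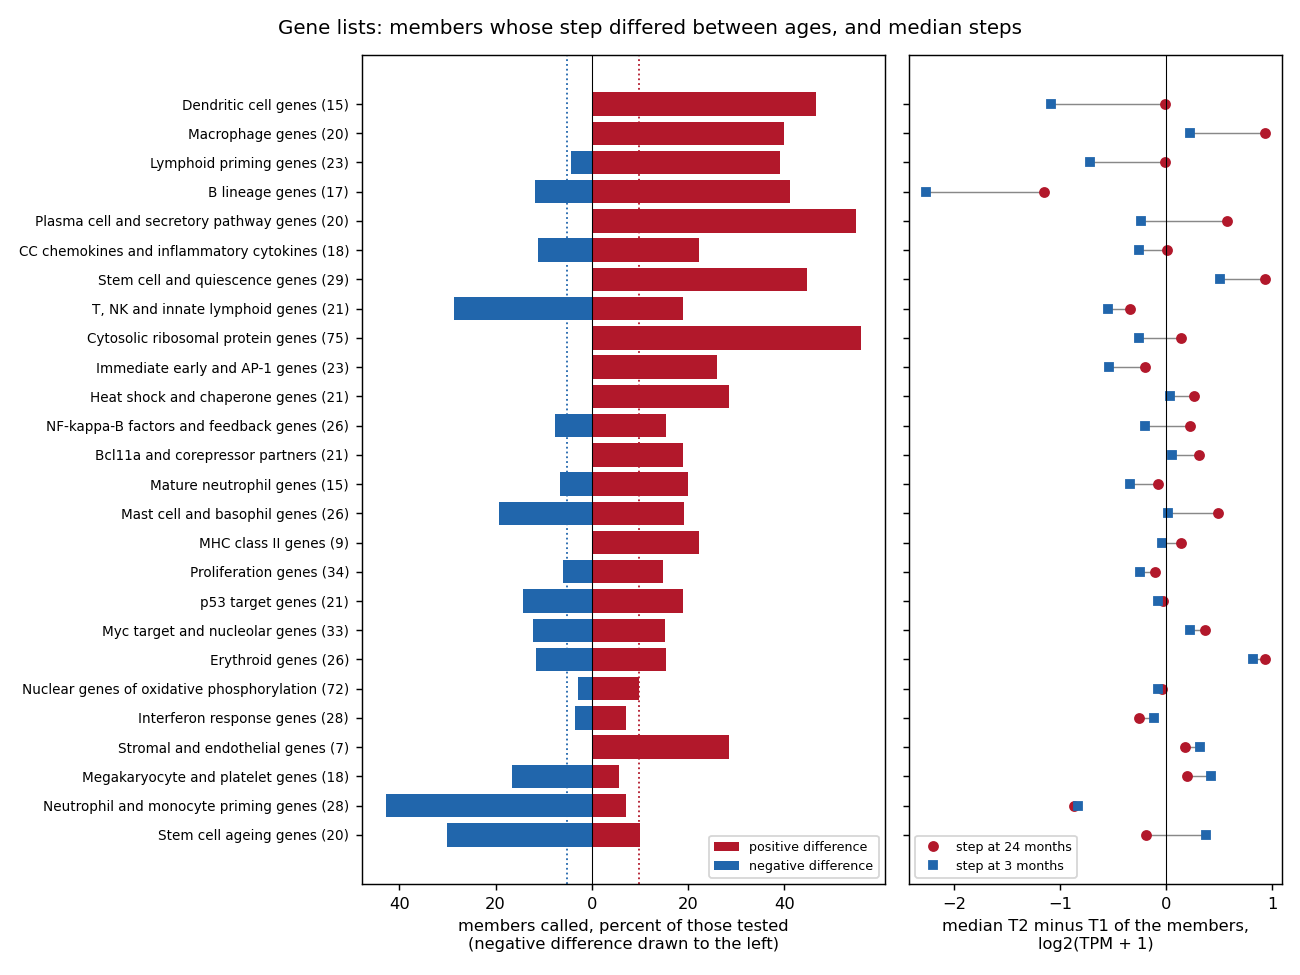
The left panel gives, for 26 gene lists, the percentage of tested members with a positive difference (red, to the right) and a negative one (blue, to the left), with dotted lines at the 9.86% and 5.24% of all genes, and the right panel gives the median log2 step of each list at 24 months (circles) and at 3 months (squares). Plasma cell, stem cell, dendritic, B lineage, lymphoid, macrophage and ribosomal lists reach furthest to the right, and neutrophil and monocyte priming genes furthest to the left.

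Neutrophil and monocyte priming genes had negative differences more often than positive ones. Of 28 tested, 12 had a negative and 2 a positive difference and 14 were not called, with a median of -0.39 and median steps of -0.87 at 24 months and -0.83 at 3 months. The negative count was 11 after rescaling, 15 after removal of the GC and length trend, and 10 to 14 with 1 library left out. Elane, neutrophil elastase, at chr10:79886247-79888215, stood at 228, 316 and 334 TPM in 24-month T2 and at 3900.1, 2694 and 3425 TPM in 24-month T1 libraries, against 1896, 1766 and 1048 TPM in 3-month T2 and 3097, 3262 and 2673 TPM in 3-month T1 libraries. T2 was below T1 in every library at both ages, with steps of -3.51 and -0.98 and a difference of -2.53 (SE 0.32, adjusted p 0.000556).

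Gstm1, a glutathione transferase, averaged 285 ± 31.2 TPM in 24-month T2 and 2486 ± 196 TPM in 24-month T1 cells, against 205 ± 9.61 TPM in 3-month T2 and 366 ± 24.0 TPM in 3-month T1 cells (SD, n = 3 each), and its difference was -2.29 (SE 0.13, adjusted p 2.77e-08). Ms4a3, a membrane protein of granulocyte and monocyte progenitors, had opposite steps. It stood at 208, 182 and 196 TPM in 24-month T2 and at 339, 321 and 325 TPM in 24-month T1 libraries, against 180.0, 168 and 127 TPM in 3-month T2 and 61.9, 67.1 and 72.1 TPM in 3-month T1 libraries. T2 lay below T1 at 24 months and above it at 3 months, and the difference was -1.96 (SE 0.16, adjusted p 2.26e-06). Anxa1, an anti-inflammatory annexin, had a difference of -1.25 (SE 0.13, adjusted p 1.75e-05). Named after their values were seen, the granule protease Ctsg had a difference of -1.34, the granulocyte factor Cebpe -1.44, the lectin receptor Clec12a -2.05, the Fc receptor Fcgr3 -1.77 and Mpo -0.42, and besides Irf8 the member with a positive difference was Csf1r, the receptor of macrophage growth factor, at 2.05.

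Of 6 mature neutrophil markers 1 had a positive and 0 a negative difference, as had 1 and 0 of 3 monocyte markers. Summed neutrophil markers ran between 349.7 and 447 TPM in 24-month T2, 2226 and 2592 TPM in 24-month T1, 13.4 and 516 TPM in 3-month T2 and 32.9 and 277 TPM in 3-month T1 libraries. Monocyte markers ran between 246 and 274, 2078 and 2271, 109 and 213, and 1507 and 1638 TPM in the same groups. Of the neutrophil markers, S100a8 and S100a9 made up most of the 24-month T1 sum, averaging 1959 and 381 TPM there. Ngp, Retnlg, Ltf and Camp averaged higher in 24-month T2 than in 24-month T1 cells, Ngp at 20.5 and 1.48 TPM. The neutrophil sum of 516 TPM in 3-month T2 was that of replicate 2, in which Ngp stood at 345 TPM. The part of neutrophils and monocytes in the result was not tested. Among 15 tested genes of mature neutrophils, 3 had a positive and 1 a negative difference, against 9.86% and 5.24% of all genes. The positive count was 0 without 24-month T1 replicate 1, 24-month T1 replicate 2, 24-month T2 replicate 2, 3-month T1 replicate 2 or 3-month T2 replicate 1. Wfdc21, a secreted antimicrobial-type protein, was the negative one, averaging 11.6 ± 2.23 TPM in 24-month T2 and 83.4 ± 5.15 TPM in 24-month T1 cells, against 1.43 ± 1.55 TPM in 3-month T2 and 1.34 ± 1.21 TPM in 3-month T1 cells (SD, n = 3 each). Its difference of -2.71 (SE 0.59, adjusted p 0.00849) missed the threshold with a pseudocount of 0.1 (adjusted p 0.388).

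**Figure D4:**
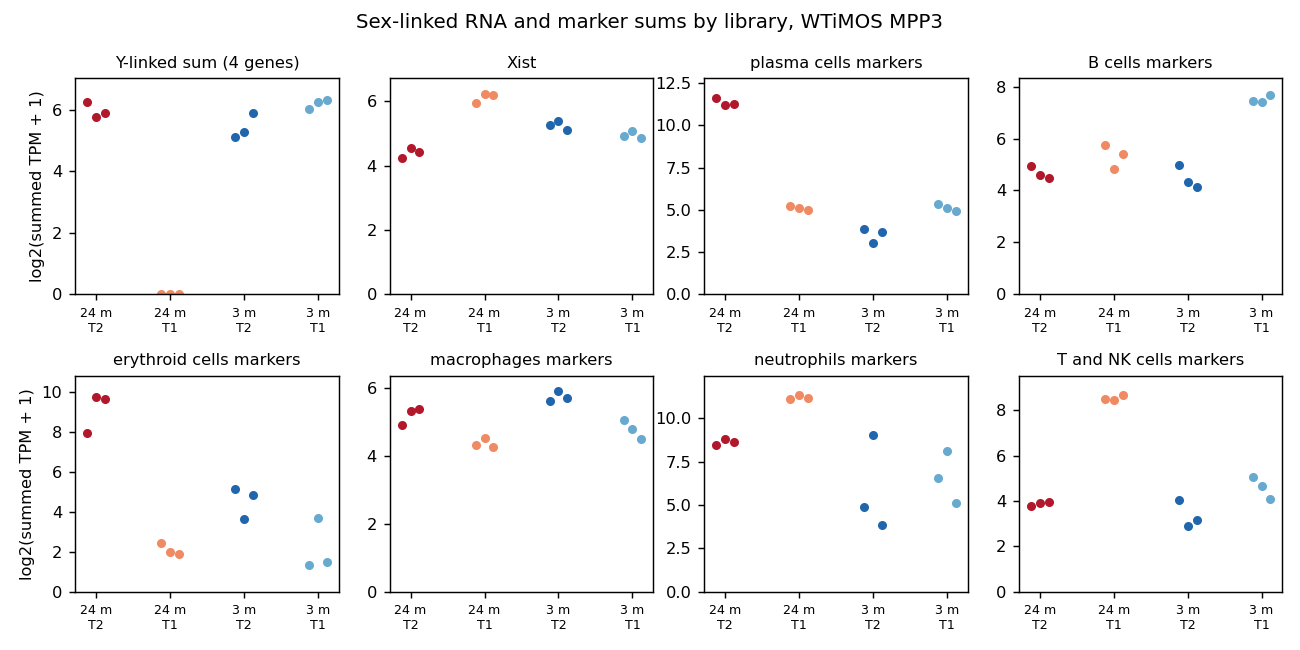
Summed levels of the Y-linked genes, Xist and marker lists of plasma, B, erythroid, macrophage, neutrophil and T or NK cells in each library, as log2(summed TPM + 1), with groups running from 24-month T2 and 24-month T1 to 3-month T2 and 3-month T1. The Y-linked sum is 0 in 24-month T1 libraries, plasma and erythroid sums peak in 24-month T2 libraries, and neutrophil and T or NK sums peak in 24-month T1 libraries.

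The largest negative differences were in genes high in 24-month T1 cells. Dmkn, which encodes the skin protein dermokine and lies at chr7:30763756-30781063, stood at 6.47, 6.74 and 7.03 TPM in 24-month T2 and at 894, 934 and 929 TPM in 24-month T1 libraries, against 4.69, 4.87 and 4.53 TPM in 3-month T2 and 97.2, 103 and 116 TPM in 3-month T1 libraries. T1 was above T2 at both ages without overlap, and the difference was -2.68 (SE 0.15, adjusted p 2.77e-08). Trat1, an adaptor molecule of T cells at chr16:48730774-48772021, stood at 7.47, 8.15 and 9.86 TPM in 24-month T2 and at 349, 344 and 396 TPM in 24-month T1 libraries, against 9.57, 2.98 and 3.50 TPM in 3-month T2 and 12.4, 11.5 and 10.5 TPM in 3-month T1 libraries, for a difference of -4.15 (SE 0.37, adjusted p 6.7e-06). Trat1 is itself 1 of 5 T and NK markers and made up nearly all of their sum in 24-month T1 libraries. The sum was 12.7 to 14.5 TPM in 24-month T2, 354 to 409 TPM in 24-month T1, 6.44 to 15.5 TPM in 3-month T2 and 16.0 to 32.4 TPM in 3-month T1 libraries. Cd3e, which defines T cells, reached at most 0.0675 TPM in 24-month T1 libraries.

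Scin, an actin-severing protein, averaged 4.35 ± 1.82 TPM in 24-month T2 and 77.7 ± 5.49 TPM in 24-month T1 cells, and Serpine2, a protease inhibitor, 4.53 ± 0.56 TPM and 67.3 ± 6.43 TPM in the same groups (SD, n = 3 each). Both were lower in T2 at 3 months too, by log2 steps of -1.02 and -0.97, against -3.93 and -3.63 at 24 months. Cdk5rap1, an enzyme of mitochondrial transfer RNA modification, averaged 7.44 ± 1.48 TPM in 24-month T2 and 64.1 ± 4.19 TPM in 24-month T1 cells, against 22.5 ± 3.96 TPM in 3-month T2 and 23.4 ± 1.06 TPM in 3-month T1 cells (SD, n = 3 each), and its difference was -2.90 (SE 0.22, adjusted p 1.24e-06). Perp, a desmosomal p53 target, had a difference of -2.81, the galectin relative Grifin -3.15, the intestinal enzyme Mgam -3.11, the myeloid inhibitory receptor Lilr4b -2.64, and the acute-phase protein Saa3 -2.74. The highest level of any of these genes in a library was 32.4 TPM, of Saa3 in a 24-month T1 library, and the call of Saa3 was lost without 24-month T1 replicate 3, 3-month T1 replicate 2 or 3-month T1 replicate 3, and with a pseudocount of 0.1. The microRNA loci Mir763 and Mir6935 also met the rule, and the sources used here do not say whether reads of overlapping genes were counted to them.

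Of 21 tested T, NK and innate lymphoid genes, 4 had a positive and 6 a negative difference, against 9.86% and 5.24% of all genes. Ctla2a, a cysteine protease inhibitor of progenitors and T cells, averaged 1098 ± 36.2 TPM in 24-month T2 and 2059 ± 86.4 TPM in 24-month T1 cells, against 794 ± 2.90 TPM in 3-month T2 and 771 ± 14.6 TPM in 3-month T1 cells (SD, n = 3 each), with a difference of -0.95 (SE 0.09, adjusted p 8.48e-06). Gata3, a factor of T and innate lymphoid cells, and Lck, a T-cell kinase, had positive differences of 1.25 each (adjusted p 0.00131 and 0.00149). The positive count was 2 without 24-month T1 replicate 1.

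Of 20 tested macrophage genes, 8 had a positive and 0 a negative difference, with a median of 0.87. The count was 8 after rescaling and after removal of the GC and length trend, and 5 without 24-month T2 replicate 2. C1qb, a chain of complement C1q, averaged 24.2 ± 5.37 TPM in 24-month T2 and 1.80 ± 0.0828 TPM in 24-month T1 cells, against 32.0 ± 6.59 TPM in 3-month T2 and 9.44 ± 3.02 TPM in 3-month T1 cells (SD, n = 3 each). Its difference was 1.46 (SE 0.31, adjusted p 0.00499). Hmox1, which degrades haem, had a difference of 2.28 (adjusted p 0.00149), and Apoe, a lipid carrier, 0.89 (adjusted p 0.000597). Among the largest positive differences were also Aif1 at 3.04, Ms4a7 at 3.24, Fabp4 at 3.03 and Slamf9 at 3.18, all seen in macrophages. Summed macrophage markers ran between 29.4 and 40.6 TPM in 24-month T2, 18.3 and 22.2 TPM in 24-month T1, 48.3 and 59.4 TPM in 3-month T2 and 21.5 and 32.7 TPM in 3-month T1 libraries. The difference of the defining Adgre1 was not called, and Adgre1 was lower in T2 than in T1 cells at both ages. It averaged 6.50 TPM in T2 and 17.8 TPM in T1 cells at 24 months, and 3.64 and 12.1 TPM at 3 months. The part of macrophages was not tested.

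Mast cell and basophil genes moved both ways, with 5 of 26 tested positive and 5 negative, against 9.86% and 5.24% of all genes. Cpa3, a mast cell protease, averaged 383 ± 35.6 TPM in 24-month T2 and 2037 ± 134 TPM in 24-month T1 cells, against 135 ± 12.2 TPM in 3-month T2 and 235 ± 12.7 TPM in 3-month T1 cells (SD, n = 3 each), and had a difference of -1.61 (SE 0.13, adjusted p 2e-06). Il4, the cytokine of basophils and helper T cells, stood at 6.99, 8.19 and 7.16 TPM in 24-month T2 and at 3.88 TPM or less in the other libraries, with a difference of 3.43 (SE 0.55, adjusted p 0.00066). The positive count was 2 without 24-month T1 replicate 3 and 3 without 24-month T1 replicate 1, 24-month T2 replicate 2 or 3-month T1 replicate 3. Of 18 tested megakaryocyte and platelet genes, 1 had a positive and 3 a negative difference, against 9.86% and 5.24% of all genes, and the negative count was 5 without 24-month T2 replicate 1. Cd9, a tetraspanin of platelets, had a step of 0.16 at 24 months, which missed the threshold, and of 0.77 at 3 months, for a difference of -0.61 (SE 0.15, adjusted p 0.0145).

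Cytosolic ribosomal protein genes often had small positive differences. Of 75 tested, 42 had a positive and 0 a negative difference, against 9.86% and 5.24% of all genes. Their median difference was 0.42, against 0.08 over all genes. Their median step was 0.14 at 24 months, below the 0.17 of all genes, and -0.25 at 3 months, against 0.10 of all genes. The count was 32 after rescaling, 34 after removal of the GC and length trend, and 34 to 55 with 1 library left out. Rpl8 stood at 1226, 1456 and 1393 TPM in 24-month T2 and at 904, 1004 and 841 TPM in 24-month T1 libraries, against 1576, 1577 and 1463 TPM in 3-month T2 and 1927, 1924 and 1798 TPM in 3-month T1 libraries. T2 lay above T1 at 24 months and below it at 3 months, and the difference was 0.86 (SE 0.12, adjusted p 0.000181). Rps2 had a difference of 0.68, Rpl13a of 0.76 and Rps27a of 0.75, each with steps that passed in opposite directions on the deposited scale. The sources used here do not say how reads shared with ribosomal pseudogenes were assigned.

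Immediate early and AP-1 genes had 6 positive and 0 negative differences among 23 tested, against 9.86% and 5.24% of all genes. The counts were 6 and 1 after rescaling and 5 and 2 after removal of the GC and length trend. Fos stood at 971, 873 and 859.7 TPM in 24-month T2 and at 817, 878 and 838 TPM in 24-month T1 libraries, against 1552, 1828 and 1778 TPM in 3-month T2 and 3381, 3345 and 3282 TPM in 3-month T1 libraries. Its groups overlapped at 24 months and not at 3 months, and the difference was 1.05 (SE 0.11, adjusted p 1.52e-05). Zfp36, which destabilises cytokine messages, had steps of 0.83 and -0.61 and a difference of 1.44 (SE 0.17, adjusted p 5.32e-05). Of 26 NF-kappa-B factors and feedback genes, 4 had a positive and 2 a negative difference, near the 9.86% and 5.24% of all genes. Among them were Nfkbia, the inhibitor of the pathway, at 0.78 (adjusted p 0.00305) and Cd69, an early activation antigen, at -1.17 (adjusted p 3.19e-05). Of 18 CC chemokines and inflammatory cytokines, 4 had a positive and 2 a negative difference, against the same shares of all genes. Ccl4 averaged 722 ± 114 TPM in 24-month T2 and 3229 ± 73.0 TPM in 24-month T1 cells, against 109.6 ± 20.4 TPM in 3-month T2 and 252 ± 27.4 TPM in 3-month T1 cells (SD, n = 3 each), and had a difference of -0.97 (SE 0.18, adjusted p 0.00243), whereas Ccl3, its neighbour on chromosome 11, had 0.98 (SE 0.14, adjusted p 0.000335). The positive count of this list was 2 without 24-month T1 replicate 3 and 2 without 3-month T1 replicate 2.

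Of 21 tested genes for Bcl11a and its corepressor partners, 4 had a positive and 0 a negative difference, Bcl11a being 1 of the 4. The shares of all genes were 9.86% and 5.24%. Mta2, a subunit of the NuRD complex, averaged 20.8 ± 3.79 TPM in 24-month T2 and 8.29 ± 0.767 TPM in 24-month T1 cells, against 283 ± 39.9 TPM in 3-month T2 and 257 ± 8.35 TPM in 3-month T1 cells (SD, n = 3 each), and had a difference of 1.08 (SE 0.19, adjusted p 0.00149). Zbtb7a, a second repressor of fetal globin, and Chd4, the NuRD remodeller, had differences of 0.68 and 0.60 at adjusted p of 0.0338 and 0.044, and both missed the threshold after removal of the GC and length trend. The count was 2 when any 1 of 7 of the 12 libraries was left out, among them 24-month T1 replicates 1 and 3, 24-month T2 replicates 2 and 3 and all 3 of the 3-month T1 libraries.

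**Figure D5:**
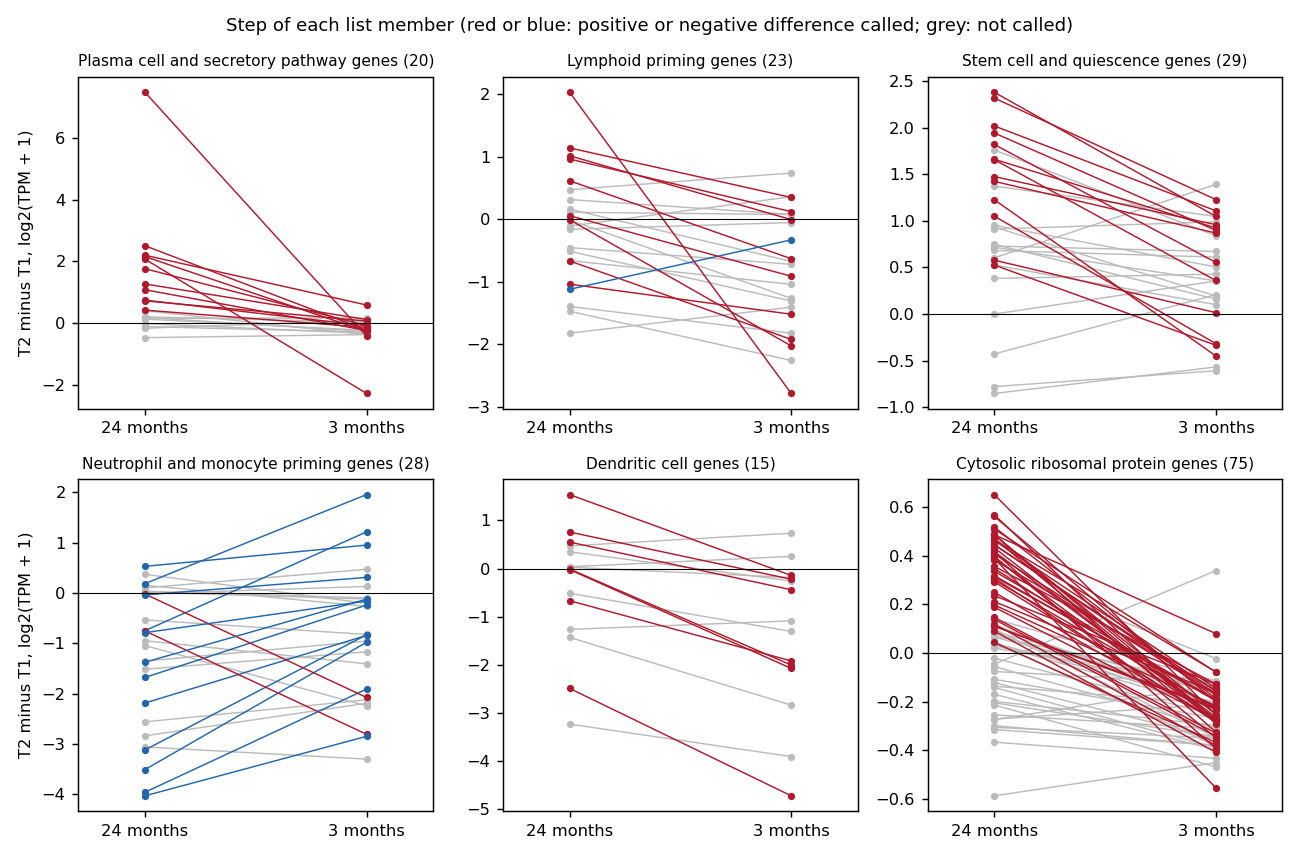
For 6 gene lists, each line joins the log2 T2 minus T1 step of 1 tested member at 24 months (left) and at 3 months (right), red where the difference was positive, blue where it was negative and grey where it was not called. The 42 called ribosomal members slope down from left to right, and the 12 called negative members of the neutrophil and monocyte priming list slope up.

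In MPP4 cells the difference of steps was of another kind. It passed the test for 9576 of 11403 genes (84.0%) with a median of 1.17, and for 5497 with a median of 0.10 after rescaling, so MPP4 values are given rescaled. Before rescaling 8738 genes (76.6%) were positive and 838 (7.35%) negative. The Y-linked sum averaged 162 ± 5.85 TPM in 24-month T2 and 0.106 ± 0.0682 TPM in 24-month T1 cells, against 111 ± 4.68 TPM in 3-month T2 cells and 0 in 3-month T1 cells (SD, n = 3 each). Male transcripts thus separated T2 from T1 at both ages in MPP4 cells, and at 24 months alone in MPP3 cells. In every MPP3 minus MPP4 value below, that contrast and the cell type cannot be told apart. The difference of steps itself differed between MPP3 and MPP4 for 7864 of 12325 genes (63.8%, 5.99% higher and 57.8% lower in MPP3), and for 3609 after rescaling, 1909 of them higher and 1700 lower in MPP3. Ly6d had a difference of 4.73 in MPP3 and -1.44 in MPP4, and MPP3 minus MPP4 was 6.12 (SE 0.30, adjusted p 4.8e-13). Without rescaling, Ly6d had -0.15 in MPP4, which missed the threshold (adjusted p 0.353), and MPP3 minus MPP4 was 4.97 (adjusted p 2.83e-12). Jchain had 7.75 in MPP3 and 0.94 in MPP4, and MPP3 minus MPP4 was 6.71 (SE 0.50, adjusted p 4.15e-10). Bcl11a had 0.92 in MPP3 and -0.62 in MPP4, and MPP3 minus MPP4 was 1.49 (SE 0.25, adjusted p 4.58e-05). Without rescaling, Bcl11a had 0.66 in MPP4 and MPP3 minus MPP4 was 0.29 (adjusted p 0.32).

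For several genes the rescaled differences in MPP3 and MPP4 were not told apart by the test. MPP3 minus MPP4 was 0.06 (SE 0.16, adjusted p 0.834) for Cd34, -0.32 (SE 0.43, adjusted p 0.63) for Elane and 0.47 (SE 0.71, adjusted p 0.674) for Dmkn. Without rescaling it was -1.14 (adjusted p 3.7e-06) for Cd34 and -1.48 (adjusted p 0.00284) for Elane, which both passed, and 0.03 (adjusted p 0.966) for Dmkn. These values do not show that the genes behaved alike, and for Dmkn the standard error is wide. Gstm1 differed, with -2.35 in MPP3 and -1.05 in MPP4, and MPP3 minus MPP4 was -1.34 (SE 0.20, adjusted p 9.74e-06). Without rescaling, Gstm1 had 0.25 in MPP4 (adjusted p 0.0388), and MPP3 minus MPP4 was -2.54 (adjusted p 5.63e-11).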

How the data were processed

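RNA-seq of sorted bone marrow progenitors was deposited by the authors as TPM per gene, 1 table per age, genotype and cell type. Per the labels' protocols, cDNA was made and amplified with a low-input kit, and the submitters' processing notes name HISAT2, StringTie, featureCounts, DESeq2 and mm10 with no version or role. The sources used here do not say which tool gave the TPM, nor how multi-mapping, overlapping or antisense reads were handled. All 30 columns matched a label, and 0 were left unmapped.

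The 12 MPP3 libraries were fitted in R 4.3.3 with limma 3.58.1 on log2(TPM + 1), as 4 group means with a variance trend and robust moderation, which left 8 residual degrees of freedom. The pseudocount understates changes of low genes. Adjusted p is limma's moderated test with Benjamini-Hochberg adjustment over all genes tested, and a gene was called at 0.05. MPP4 libraries entered separate fits. Tables were handled in Python 3.11.15 with pandas 2.3.3, and the fit was tested on simulated data.

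Bcl11a was always named, with up to 14 positive and 14 negative genes by size among called genes with a mean of at least 5 TPM in a group and no overlap of the 9 T2 minus T1 library differences of each age, up to 8 genes with opposite steps, and up to 4 members of each of 26 lists by smallest p. Predicted genes and pseudogenes were left out. The comparison, the members and the lists were chosen with earlier results of these data known. Alternatives varied the pseudocount, filter, scaling, replicate block, libraries, spread and X and Y genes, and, added after the data were seen, a GC content and transcript length trend. Gene positions came from GENCODE vM21 on GRCm38, which held 23376 of the listed symbols (95.7%).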

Additional observations from a re-analysis of the deposited data

Results flagged for a closer look

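The T2 minus T1 step differed between 24 and 3 months for 1807 genes in MPP3 cells, and the difference of steps differed between MPP3 and MPP4 cells for 7864 genes, each by a test of the difference itself. The steps passed the test in opposite directions at the 2 ages for 104 genes, and the 8 named for this by the size of the smaller step are given here. Steps were upward at 24 months and downward at 3 months for Mzb1, with a log2 difference of 4.36, Ly6d, with 4.82, Pou2af1, with 4.16, Irf5, with 2.73, Ier5, with 2.17, and Ctsh, with 2.51. They were downward at 24 months and upward at 3 months for Lypd6b, with -2.33, and Rnase10, with -2.62.

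Outside the genes tested, the summed level of 4 Y-linked genes averaged 63.4 TPM in 24-month T2 cells and was listed at 0 in 24-month T1 cells. The sex of the animals behind each library is not given in the labels.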

How the results depend on the processing

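Of 118 genes named by the rule, 113 were called and 98 of these kept their call under every alternative in which they were tested. Some named genes were absent from an alternative, such as Fam46c from the GC and length fit. The difference of no named gene changed sign in an alternative that tested it. The count of genes whose step differed between the ages was 1807 and ran between 1119, without 24-month T1 replicate 3, and 1900, without 24-month T2 replicate 1, when 1 library was left out (753 to 1226 positive, 366 to 674 negative). Leaving out 1 library gave 3141 to 4484 genes for the 24-month step (2278 to 3192 higher, 863 to 1292 lower) and 1133 to 2205 for the 3-month step (620 to 1358 higher, 513 to 847 lower), the lowest without 3-month T1 replicate 1. The genes with opposite steps numbered 59 to 155, the MPP4 difference 9348 to 9514 and MPP3 minus MPP4 7517 to 8089.

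A fit of all 30 libraries gave 3107 genes whose step differed, 1960 positive and 1147 negative, 3291 for the 3-month step, 2123 higher and 1168 lower, and 261 with opposite steps. Rescaling gave 1844 genes lower at 24 months, 584 higher at 3 months, 5497 for the MPP4 difference and 3609 for MPP3 minus MPP4. Removal of the GC and length trend gave 1967 genes higher at 24 months. The causes were not tested.

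Libraries with the same number did not deviate together (correlations of -0.0973 to 0.0371). With 3 libraries a group, that cannot show whether they shared an animal or a sort, which the labels do not say. With the replicate block the counts were 1616 for the difference of steps (1046 positive, 570 negative), 4086 for the 24-month step, 1689 for the 3-month step, 101 with opposite steps, 9517 for MPP4 and 7748 for MPP3 minus MPP4. Read depth is unknown, so what it limits cannot be given.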

Other observations

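Growth and stress genes are read against the 9.86% of all genes that were positive and the 5.24% that were negative. Of 21 heat shock and chaperone genes, 6 had a positive and 0 a negative difference, 4 positive after rescaling and 6 after removal of the GC and length trend. Hspe1, a mitochondrial co-chaperonin, averaged 1113 ± 100.3 TPM in 24-month T2 and 652 ± 35.4 TPM in 24-month T1 cells, against 160.3 ± 24 TPM in 3-month T2 and 187 ± 7.12 TPM in 3-month T1 cells (SD, n = 3 each), with steps of 0.77 and -0.23 and an adjusted p of 0.000308 for their difference. Of 33 Myc target and nucleolar genes, 5 had a positive and 4 a negative difference, or 3 and 2 without 24-month T1 replicate 3. Fbl, the nucleolar methyltransferase fibrillarin, averaged 220.3 ± 6.96 TPM in 24-month T2 and 95.5 ± 6.16 TPM in 24-month T1 cells, against 614 ± 14.1 TPM in 3-month T2 and 631 ± 13.4 TPM in 3-month T1 cells (SD, n = 3 each), with a difference of 1.24 (SE 0.11, adjusted p 2.87e-06), whereas Gnl3, nucleostemin, had opposite steps and a difference of -0.70 (SE 0.13, adjusted p 0.00155).

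Of 72 nuclear genes of oxidative phosphorylation, 7 had a positive and 2 a negative difference, and the median of 0.03 was -0.03 after rescaling. The positive count was 4 without 3-month T1 replicate 2. Of 34 proliferation genes, 5 were positive and 2 negative, and the positive count was 1 without 24-month T1 replicate 3 and 1 to 5 over all libraries left out in turn. Ccnb1, the mitotic cyclin B1, had a negative difference of -1.04 (SE 0.16, adjusted p 0.000406). Of 21 p53 target genes, 4 were positive and 3 negative, among them the death effector Bax at 1.11 (adjusted p 5.47e-05) and the kinase Plk2 at -1.41 (adjusted p 0.00176). Of 28 interferon response genes, 2 were positive and 1 negative (1 to 4 negative with 1 library left out), Ifitm1 having opposite steps and a difference of -0.93 (SE 0.12, adjusted p 0.000105) and the ubiquitin-like Isg15 a difference of 1.39 (SE 0.33, adjusted p 0.0096). Of 9 MHC class II genes, 2 were positive (1 to 3 with 1 library left out) and 0 negative, with H2-Ob, which modulates peptide loading, at 1.25 (SE 0.20, adjusted p 0.000647). Of 7 stromal and endothelial genes, 2 were positive and 0 negative, and the positive count was 0 or 1 whenever 1 library was left out.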
